A study of Homo sapiens with 32 samples.

Results

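The response of Huh7 and HepG2 to an siRNA against HDAC2 was compared gene by gene, as the effect in HepG2 minus the effect in Huh7. An effect is the mean log2 signal with HDAC2 siRNA minus the mean log2 signal with scrambled siRNA in the same line. A positive difference therefore marks a gene whose change was higher in HepG2, whether it rose more there or fell less. Of the 32 bead arrays of the series, 16 belong to the siRNA experiment and were used for this contrast, 4 each of Huh7 with scrambled siRNA, Huh7 with HDAC2 siRNA, HepG2 with scrambled siRNA and HepG2 with HDAC2 siRNA. By the labels Huh7 is a line of hepatocellular carcinoma (HCC) and HepG2 of hepatoblastoma (HB), and no other genotype or agent is given for these groups. Both are established lines, so each stands for 1 tumour of its kind, and no source used here gives the siRNA sequence, its dose or the time of harvest. The other 16 arrays hold the same lines with DMSO or with SAHA, a histone deacetylase inhibitor also called vorinostat. A gene was taken as detected in both lines when its probe gave a detection p under 0.05 on at least 4 of the 8 siRNA-experiment arrays of each line, which held for 9209 of 12973 genes tested. On all 16 arrays 7834 of them were detected, while 96 had no detected array in 1 or more of the 4 groups and could differ through that group alone. At the edge of the rule, 327 genes were detected on 4 arrays of the lesser line and 372 more on 3 arrays and were left out.

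HDAC2 is a class I histone deacetylase, a nuclear enzyme that removes acetyl groups from histone tails and from other proteins. It works with its close relative HDAC1 in corepressor complexes, among them NuRD, Sin3 and CoREST, which transcription factors bring to promoters and enhancers. In liver cells and liver tumours these enzymes are known for their part in proliferation and in the control of metabolic genes.

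Each array detected 48.3% to 53.8% of its probes, with a median raw signal of 125.3 to 195.5, and the arrays within a group correlated at 0.979 to 0.996. The HepG2 HDAC2 siRNA arrays lay in pairs: arrays 1 and 2 correlated at 0.989 and arrays 3 and 4 at 0.988, against 0.979 to 0.982 across the pairs. Without arrays 1 and 2 of this group the genes called in HepG2 were 4142, against 4112 with all arrays, and without arrays 3 and 4 they were 3299. Of 12 hepatocyte markers on the array, each was detected in every group and 10 to 12 were detected on all 4 arrays of a group. Of 13 leukocyte markers 7 were undetected in each group, PTPRC and CD3E among them, and of 13 fibroblast and endothelial markers 7 to 9 were, with CDH5 and VWF among them throughout. The summed level of the leukocyte markers ran from 9.88 to 10.22 in Huh7 with scrambled and from 9.62 to 9.76 with HDAC2 siRNA, and from 10.45 to 10.60 and from 10.58 to 10.99 in HepG2. That of the fibroblast and endothelial markers ran from 9.55 to 9.85 and from 10.07 to 10.27 in Huh7, and from 9.11 to 9.42 and from 9.24 to 9.53 in HepG2. In Huh7 the groups did not overlap for either list, with lower leukocyte and higher fibroblast and endothelial sums after the siRNA. Such a lack of overlap was common, as it held for 55.8% of the 9209 genes in Huh7. The sums also include the undetected markers. The sum of 2 oncofetal markers ran from 14.70 to 14.88 and from 14.28 to 14.32 in Huh7, again without overlap, and the groups overlapped in HepG2. No label tells whether replicate arrays stem from separate cultures, so the p-values measure the spread between arrays, which may be technical, and the number of arrays limits the precision of every value. A lower signal can mean fewer transcripts per cell or fewer cells that carry them, and arrays of whole cultures cannot tell these apart.

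The target of the siRNA fell in both lines. HDAC2 read 12.12, 12.08, 12.05 and 12.03 on the scrambled Huh7 arrays and 8.85, 8.65, 8.64 and 8.76 on the siRNA arrays. On HepG2 arrays HDAC2 read 10.92, 11.15, 10.82 and 11.00 with scrambled and 7.90, 7.80, 8.25 and 7.75 with HDAC2 siRNA. For HDAC2 all 4 siRNA arrays lay below all 4 scrambled arrays in each line. HDAC2 changed by -3.34 (SE 0.10, limma adjusted p = 4.24e-21) in Huh7 and by -3.05 (SE 0.10, limma adjusted p = 2.45e-19) in HepG2, a difference of 0.30 (SE 0.15, 95% interval -0.0043 to 0.60, limma adjusted p = 0.117). The call of that difference depended on the background step: the difference was 0.48 (limma adjusted p = 0.000754) with no background correction and 0.36 (adjusted p = 0.0312) with an offset of 50. Without HepG2 HDAC2 siRNA array 3 the difference was 0.19.

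HDAC1, the closest relative of HDAC2 and its partner in the same complexes, moved in opposite directions in the lines. HDAC1 read 13.12, 13.26, 13.02 and 13.23 on the scrambled Huh7 arrays and 12.80, 12.78, 12.62 and 12.88 on the siRNA arrays. On HepG2 arrays HDAC1 read 11.59, 11.78, 11.80 and 11.64 with scrambled and 12.38, 12.68, 12.33 and 12.52 with HDAC2 siRNA. For HDAC1 all 4 siRNA arrays lay below the scrambled arrays in Huh7 and above them in HepG2. HDAC1 changed by -0.39 (SE 0.08, limma adjusted p = 0.000316) in Huh7 and by 0.78 (SE 0.08, limma adjusted p = 1.71e-08) in HepG2, a difference of 1.16 (SE 0.12, 95% interval 0.92 to 1.41, limma adjusted p = 5.96e-09). Of the other histone deacetylases, HDAC3, the catalytic subunit of the NCoR/SMRT complexes, rose by 0.58 in Huh7 with an effect of -0.10 in HepG2, a difference of -0.68 (adjusted p = 0.000438) by limma. HDAC6, a cytoplasmic deacetylase of tubulin, rose by 0.69 in Huh7 against 0.15 in HepG2, a difference of -0.54 (adjusted p = 0.0142). HDAC4, a class II member, fell by 0.72 in Huh7 against -0.21 in HepG2. Its difference of 0.52 (adjusted p = 0.0387) was lost in 13 of 32 alternative settings. The difference of HDAC11 was -0.09 (SE 0.29, 95% interval -0.69 to 0.52, limma adjusted p = 0.853). The class I member HDAC8 was not among the genes detected in both lines, since its 8 HepG2 arrays detected it 3 times, all with HDAC2 siRNA. Of 6 family members detected in both lines 2 had a higher and 2 a lower difference, against 22.8% and 20.6% of all 9209 genes, and the median difference of HDAC family members was 0.10, or -0.01 without HepG2 siRNA arrays 1 and 2 and 0.22 without arrays 3 and 4. Of 23 subunits of NuRD, Sin3 and CoREST detected in both lines, 2 had a higher and 6 a lower difference, and the median difference was -0.26, from medians of 0.39 in Huh7 and -0.06 in HepG2. KDM1A, the histone demethylase of CoREST, rose by 0.76 in Huh7 with an effect of -0.09 in HepG2. GATAD2A, a NuRD subunit, fell by 0.80 in Huh7 but rose in HepG2 by 0.26. ARID4B, a Sin3 subunit, rose by 1.12 in Huh7 and fell by 0.43 in HepG2, and both of its other probes gave called differences of the same sign.

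Across the transcriptome the response depended on the line for close to as many genes as responded in HepG2. The difference was called (limma adjusted p under 0.05) for 3997 of the 9209 genes (43.4%), with 2098 higher (22.8%) and 1899 lower (20.6%). Without the HepG2 HDAC2 siRNA arrays 1 and 2 the count was 4084, and without arrays 3 and 4 it was 3744. Over all 12973 genes tested it was 4825 (37.2%). In Huh7 itself 5083 genes (55.2%) were called, 2508 up (27.2%) and 2575 down (28%), and in HepG2 4112 (44.7%), 2134 up (23.2%) and 1978 down (21.5%). The siRNA and scrambled arrays did not overlap for 5136 genes (55.8%) in Huh7 and for 3045 (33.1%) in HepG2. The effects had a wider spread in Huh7 (SD over genes 0.66) than in HepG2 (0.50), and across the 9209 genes, which are not independent, the effects of the lines correlated at a Pearson r of 0.336 and a Spearman rho of 0.295. The median difference over all these genes was 0.03, or 0.08 with each array scaled to one median; that scaling put 60.5% of the called differences on the higher side, against 52.5%.

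The 3997 called differences fell into several patterns. In 1695 the gene was called in Huh7 and not in HepG2, in 926 it was called in HepG2 and not in Huh7, and in 130 in neither line alone. Another 555 changed in the same direction in both lines by unequal amounts, and 691 (7.5%) changed in opposite directions, 374 falling in Huh7 and rising in HepG2 (4.06%) and 317 the reverse (3.44%). Without HepG2 siRNA arrays 1 and 2 these counts were 571 and 756, and without arrays 3 and 4 they were 457 and 596. Among the 2098 higher differences, 828 came from genes that fell in Huh7 with no call in HepG2, and 531 from genes that rose in HepG2 with no call in Huh7. The 1899 lower differences included 867 genes that rose in Huh7 with no call in HepG2 and 395 that fell in HepG2 with no call in Huh7. At least 2-fold differences were called for 1182 genes, 586 higher and 596 lower. That count was 486 without background correction and 847 with an offset of 50. Another 1300 genes were called in the same direction in both lines with no called difference.

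**Figure D1:**
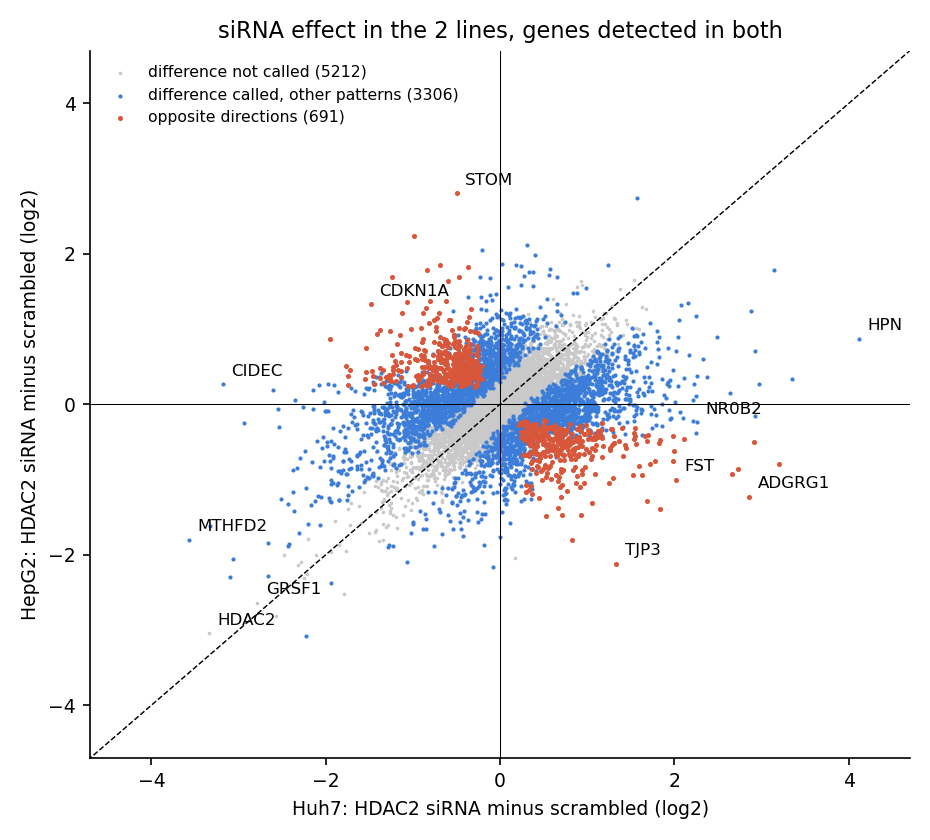
Each point is 1 of the 9209 genes detected in both lines, placed by its siRNA effect (log2, mean of 4 siRNA arrays minus mean of 4 scrambled arrays) in Huh7 on the horizontal and in HepG2 on the vertical axis. The dashed line marks equal effects. HDAC2 and GRSF1 sit near it. Red points are the 691 genes called in both lines with opposite directions and for the difference, with ADGRG1 and TJP3 below the horizontal axis and CDKN1A above it.

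The 691 genes that changed in opposite directions are described by those ranked first in each direction. CDKN1A encodes p21, an inhibitor of cyclin-dependent kinases. CDKN1A read 9.80, 10.05, 10.18 and 10.14 on the scrambled Huh7 arrays and 8.53, 8.69, 8.61 and 8.41 on the siRNA arrays. On HepG2 arrays CDKN1A read 12.13, 12.18, 12.40 and 12.08 with scrambled and 13.28, 13.47, 13.53 and 13.83 with HDAC2 siRNA. For CDKN1A all 4 siRNA arrays lay below the scrambled arrays in Huh7 and above them in HepG2. CDKN1A changed by -1.49 (SE 0.10, limma adjusted p = 3.76e-13) in Huh7 and by 1.33 (SE 0.10, limma adjusted p = 1.42e-11) in HepG2, a difference of 2.82 (SE 0.14, 95% interval 2.52 to 3.11, limma adjusted p = 4.03e-15). A dim second CDKN1A probe, which was not detected in both lines, read a difference of -0.13 (limma adjusted p = 0.755), and the mean of the probes gave 1.34. CCN1 encodes a matricellular protein that binds integrins. CCN1 read 11.52, 11.70, 11.73 and 12.00 on the scrambled Huh7 arrays and 10.64, 10.48, 10.48 and 10.85 on the siRNA arrays. On HepG2 arrays CCN1 read 8.64, 9.13, 8.93 and 8.51 with scrambled and 9.78, 9.64, 10.24 and 10.39 with HDAC2 siRNA. For CCN1 all 4 siRNA arrays lay below the scrambled arrays in Huh7 and above them in HepG2. CCN1 changed by -1.12 (SE 0.15, limma adjusted p = 2.36e-07) in Huh7 and by 1.21 (SE 0.15, limma adjusted p = 1.77e-07) in HepG2, a difference of 2.33 (SE 0.21, 95% interval 1.90 to 2.76, limma adjusted p = 6.23e-10). NABP1, a single-stranded nucleic acid binding protein, fell by 1.07 in Huh7 but rose in HepG2 by 1.37. SEC14L1 fell by 1.02 in Huh7 but rose in HepG2 by 1.01, and its other probe gave a difference of 1.72. LRCH4 fell by 1.37 in Huh7 but rose in HepG2 by 0.99, where 2 of 4 scrambled arrays detected it, and its difference of 2.37 was 1.00 without background correction. The rise of LRCH4 in HepG2 leaned on siRNA array 2, which read 7.28 against 5.99 to 6.10 on the other siRNA arrays. CDK6, a kinase that drives entry into S phase, fell by 1.27 in Huh7 but rose in HepG2 by 0.97. INHBB, a subunit of activin B, fell by 1.42 in Huh7 but rose in HepG2 by 0.93, where 2 of 4 scrambled arrays detected it (difference 2.35, or 0.88 without background correction). SAMD4A, an RNA-binding regulator of translation, moved by -1.14 in Huh7 and 0.92 in HepG2, and its difference of 2.06 was 1.19 without background correction.

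In the reverse group, GDPD5, a glycerophosphodiester phosphodiesterase, rose by 1.83 in Huh7, where 2 of 4 scrambled arrays detected it, and fell by 1.40 in HepG2 (difference -3.23, or -1.85 without background correction). TJP3 encodes ZO-3, a scaffold of tight junctions. TJP3 read 6.15, 7.00, 6.78 and 6.56 on the scrambled Huh7 arrays and 7.91, 8.14, 7.60 and 8.18 on the siRNA arrays. On HepG2 arrays TJP3 read 8.71, 8.69, 9.02 and 8.89 with scrambled and 7.13, 7.17, 5.97 and 6.57 with HDAC2 siRNA. For TJP3 all 4 siRNA arrays lay above the scrambled arrays in Huh7 and below them in HepG2. TJP3 changed by 1.33 (SE 0.19, limma adjusted p = 5.83e-07) in Huh7 and by -2.12 (SE 0.19, limma adjusted p = 2.51e-10) in HepG2, a difference of -3.45 (SE 0.26, 95% interval -3.99 to -2.91, limma adjusted p = 1.94e-11). Without background correction the difference of TJP3 was -2.02. The HepG2 siRNA arrays 1 and 2 read 7.13 and 7.17 for TJP3 and arrays 3 and 4 read 5.97 and 6.57, a split by the array pairs. NFIX, a transcription factor, rose by 1.69 in Huh7 and fell by 1.29 in HepG2. ADGRG1 encodes an adhesion G protein-coupled receptor and had the lowest difference of the 9209 genes. ADGRG1 read 5.99, 5.98, 6.81 and 6.12 on the scrambled Huh7 arrays and 9.10, 8.90, 9.04 and 9.30 on the siRNA arrays. On HepG2 arrays ADGRG1 read 10.93, 10.77, 10.92 and 10.91 with scrambled and 10.09, 9.72, 9.21 and 9.60 with HDAC2 siRNA. For ADGRG1 all 4 siRNA arrays lay above the scrambled arrays in Huh7 and below them in HepG2. ADGRG1 changed by 2.86 (SE 0.15, limma adjusted p = 7.68e-16) in Huh7 and by -1.23 (SE 0.15, limma adjusted p = 1.34e-07) in HepG2, a difference of -4.09 (SE 0.21, 95% interval -4.52 to -3.66, limma adjusted p = 4.03e-15). A second ADGRG1 probe gave -3.59 (limma adjusted p = 2.13e-12), a dim probe not detected in both lines gave 0.15, and the mean of all probes gave -2.51. SPIN1, a reader of methylated histones, rose by 1.05 in Huh7 and fell by 1.32 in HepG2 (difference -2.37, or -1.28 without background correction). NR2F2 encodes the nuclear receptor COUP-TFII. NR2F2 read 8.45, 8.41, 8.30 and 8.54 on the scrambled Huh7 arrays and 9.73, 9.74, 9.52 and 9.70 on the siRNA arrays. On HepG2 arrays NR2F2 read 8.91, 9.41, 9.23 and 9.39 with scrambled and 8.84, 8.48, 7.63 and 7.79 with HDAC2 siRNA. For NR2F2 all 4 siRNA arrays lay above the scrambled arrays in Huh7 and below them in HepG2. NR2F2 changed by 1.25 (SE 0.16, limma adjusted p = 1.96e-07) in Huh7 and by -1.05 (SE 0.16, limma adjusted p = 7.38e-06) in HepG2, a difference of -2.30 (SE 0.23, 95% interval -2.78 to -1.83, limma adjusted p = 4.57e-09). Its HepG2 siRNA arrays split by the array pairs, with arrays 1 and 2 at 8.84 and 8.48 and arrays 3 and 4 at 7.63 and 7.79. The SE comes from a spread shared by all groups and does not show this split. Over the alternatives the difference of NR2F2 ran from -2.78 to -1.79. FST encodes follistatin, which binds and neutralises activin. FST read 8.79, 8.50, 8.95 and 8.90 on the scrambled Huh7 arrays and 10.89, 10.75, 10.82 and 10.75 on the siRNA arrays. On HepG2 arrays FST read 11.75, 12.04, 12.03 and 11.84 with scrambled and 10.84, 10.95, 10.79 and 11.08 with HDAC2 siRNA. For FST all 4 siRNA arrays lay above the scrambled arrays in Huh7 and below them in HepG2. FST changed by 2.01 (SE 0.10, limma adjusted p = 6.21e-16) in Huh7 and by -1.002 (SE 0.10, limma adjusted p = 7.87e-09) in HepG2, a difference of -3.02 (SE 0.15, 95% interval -3.32 to -2.71, limma adjusted p = 1.43e-15). LMO4, a LIM-domain cofactor of transcription, rose by 1.29 in Huh7 and fell by 0.98 in HepG2. The activin subunit INHBB and the activin antagonist FST were picked from the opposite patterns. That they moved in opposite directions within each line follows from this choice.

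**Figure D2:**
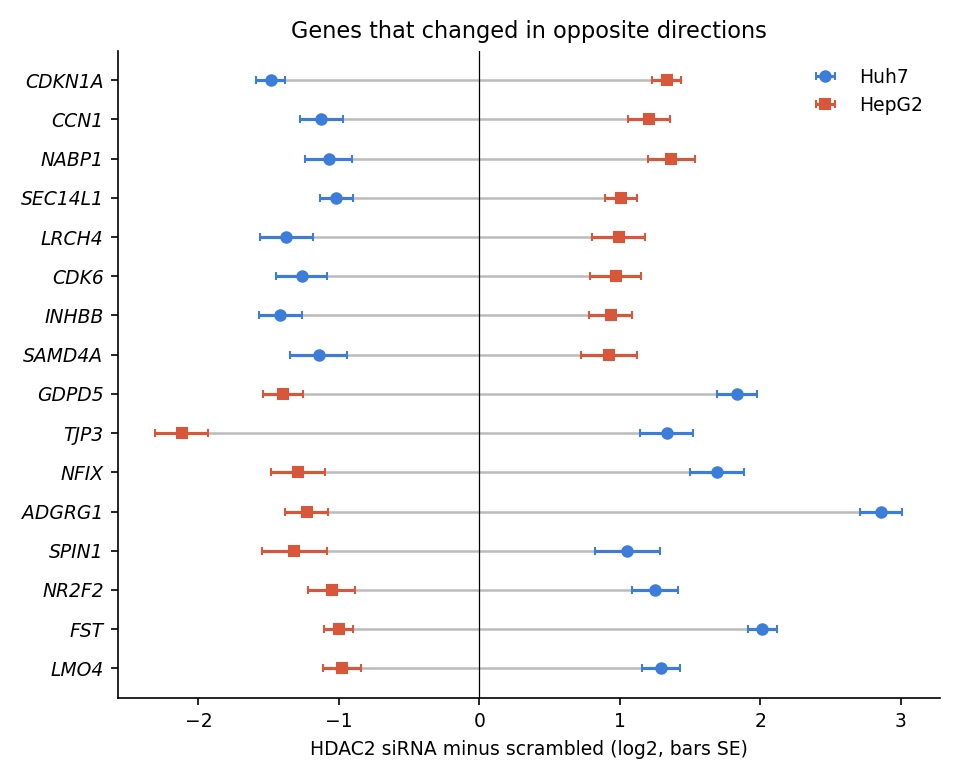
Effects of the siRNA (log2, points with SE from the fitted model) in Huh7 (circles) and HepG2 (squares) for the 8 genes ranked first in each opposite pattern. The upper 8 genes fell in Huh7 and rose in HepG2, CDKN1A at -1.49 and 1.33 among them, and the lower 8 did the reverse.

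By the fitted values all 12 genes with the largest higher differences fell in Huh7, and 7 of them rose in HepG2. CIDEC, which encodes a protein of lipid droplets, led the ranking. CIDEC read 9.73, 10.05, 9.92 and 9.97 on the scrambled Huh7 arrays and 6.61, 6.27, 6.77 and 7.29 on the siRNA arrays. On HepG2 arrays CIDEC read 9.68, 9.49, 9.48 and 9.42 with scrambled and 10.06, 10.44, 9.19 and 9.46 with HDAC2 siRNA. For CIDEC the siRNA arrays of Huh7 lay below all its scrambled arrays, while the HepG2 groups overlapped. CIDEC changed by -3.18 (SE 0.19, limma adjusted p = 2.59e-14) in Huh7 and by 0.27 (SE 0.19, limma adjusted p = 0.297) in HepG2, a difference of 3.45 (SE 0.28, 95% interval 2.89 to 4.02, limma adjusted p = 4.28e-11). The spread of CIDEC among the HepG2 siRNA arrays followed the array pairs, with arrays 1 and 2 at 10.06 and 10.44 and arrays 3 and 4 at 9.19 and 9.46. STOM encodes stomatin, an integral membrane protein. STOM read 11.05, 10.57, 10.27 and 10.23 on the scrambled Huh7 arrays and 10.22, 10.08, 9.89 and 9.94 on the siRNA arrays. On HepG2 arrays STOM read 5.08, 5.59, 5.82 and 5.01 with scrambled and 7.93, 8.11, 8.35 and 8.32 with HDAC2 siRNA. For STOM all 4 siRNA arrays lay above the scrambled arrays in HepG2. In Huh7 they lay below them only narrowly, with the highest siRNA array at 10.22 and the lowest scrambled array at 10.23. STOM changed by -0.49 (SE 0.16, limma adjusted p = 0.0135) in Huh7 and by 2.81 (SE 0.16, limma adjusted p = 4.66e-14) in HepG2, a difference of 3.30 (SE 0.23, 95% interval 2.83 to 3.77, limma adjusted p = 2.94e-12). STOM was detected on 2 of 4 scrambled HepG2 arrays, its other probe gave a difference of 2.65, and without background correction the difference was 1.77. NPPB, the gene of the B-type natriuretic peptide precursor, fell by 1.95 in Huh7 but rose in HepG2 by 0.87, where 2 of 4 scrambled arrays detected it, a difference of 2.82 (adjusted p = 2.04e-12) by limma. CDKN1A came next. ATP9B, a P-type ATPase, and ACOX2, a peroxisomal oxidase of bile acid synthesis, fell by 2.61 and 2.94 in Huh7 with effects of 0.20 and -0.24 in HepG2, with differences of 2.81 and 2.70 (1.44 and 1.61 without background correction). The small heat shock protein genes CRYAB and HSPB8 both fell in Huh7 and rose in HepG2. CRYAB was detected on all 4 scrambled and on none of the siRNA arrays of Huh7, so its fall there is known as at least 1.22-fold, and it rose by 1.78 in HepG2. With the Huh7 siRNA arrays at that bound the difference of CRYAB was at least 2.07, and its fitted difference of 2.62, which gave it a place among the 12, rests on signals not above background. The fitted difference was 1.48 without background correction and 1.48 without HepG2 siRNA arrays 3 and 4. HSPB8 fell by 0.69 in Huh7 but rose in HepG2 by 1.86, where 1 of 4 scrambled arrays detected it (difference 2.55, or 1.30 without background correction).

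At the other end all 12 genes, again by the fitted values, rose in Huh7 and 10 fell in HepG2. ADGRG1 was followed by DACT2, whose product binds Dishevelled in WNT signalling. DACT2 read 5.73, 5.95, 5.90 and 5.88 on the scrambled Huh7 arrays and 9.09, 9.01, 9.08 and 9.11 on the siRNA arrays. On HepG2 arrays DACT2 read 6.70, 7.02, 6.79 and 6.54 with scrambled and 6.64, 6.12, 5.33 and 5.77 with HDAC2 siRNA. For DACT2 the siRNA arrays of Huh7 lay above all its scrambled arrays, while the HepG2 groups overlapped. DACT2 changed by 3.21 (SE 0.17, limma adjusted p = 1.67e-15) in Huh7 and by -0.79 (SE 0.17, limma adjusted p = 0.000522) in HepG2, a difference of -4.00 (SE 0.25, 95% interval -4.50 to -3.50, limma adjusted p = 2.26e-13). DACT2 was detected on 3 of 4 siRNA arrays of HepG2, and without background correction its difference was -2.13. These HepG2 arrays again split by pair, with 6.64 and 6.12 on arrays 1 and 2 against 5.33 and 5.77 on arrays 3 and 4. PPARGC1A encodes PGC-1alpha, a coactivator of mitochondrial and gluconeogenic genes. PPARGC1A read 5.49, 5.08, 5.32 and 5.51 on the scrambled Huh7 arrays and 8.12, 8.00, 8.11 and 7.81 on the siRNA arrays. On HepG2 arrays PPARGC1A read 7.27, 7.05, 6.82 and 6.74 with scrambled and 6.23, 6.06, 5.86 and 6.02 with HDAC2 siRNA. For PPARGC1A all 4 siRNA arrays lay above the scrambled arrays in Huh7 and below them in HepG2. PPARGC1A changed by 2.66 (SE 0.15, limma adjusted p = 4.83e-15) in Huh7 and by -0.93 (SE 0.15, limma adjusted p = 1.4e-05) in HepG2, a difference of -3.58 (SE 0.21, 95% interval -4.02 to -3.15, limma adjusted p = 1.25e-13). PPARGC1A was detected on 2 of 4 scrambled Huh7 arrays, and without background correction its difference was -1.59. TRIM50, an E3 ubiquitin ligase gene, was detected on none of the scrambled and all 4 siRNA arrays of Huh7, a rise of at least 4.55-fold, and fell by 0.85 in HepG2. With its Huh7 scrambled arrays at that bound the difference of TRIM50 was -3.04 or lower, and the fitted difference of -3.58 that ranked it here (-1.46 without background correction) rests on signals not above background. TJP3 came next, and MMP11, a secreted metalloproteinase, rose by 2.91 in Huh7, where 3 of 4 scrambled arrays detected it, and fell by 0.50 in HepG2 (difference -3.41, or -1.75 without background correction). HPN encodes hepsin, a serine protease of the hepatocyte surface, and rose in both lines. HPN read 5.97, 6.19, 6.26 and 6.44 on the scrambled Huh7 arrays and 10.36, 10.27, 10.42 and 10.29 on the siRNA arrays. On HepG2 arrays HPN read 8.23, 8.08, 8.13 and 8.40 with scrambled and 8.85, 8.92, 9.23 and 9.33 with HDAC2 siRNA. For HPN all 4 siRNA arrays lay above all 4 scrambled arrays in each line. HPN changed by 4.12 (SE 0.16, limma adjusted p = 1.22e-18) in Huh7 and by 0.87 (SE 0.16, limma adjusted p = 8.72e-05) in HepG2, a difference of -3.24 (SE 0.23, 95% interval -3.72 to -2.77, limma adjusted p = 4.22e-12). A second HPN probe gave -3.50, and without background correction the difference of HPN was -2.14. The 12 also included GDPD5, FST, NFIX and PROX1, a homeobox factor of liver development, with effects of 1.98 in Huh7 and -0.75 in HepG2.

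**Figure D3:**
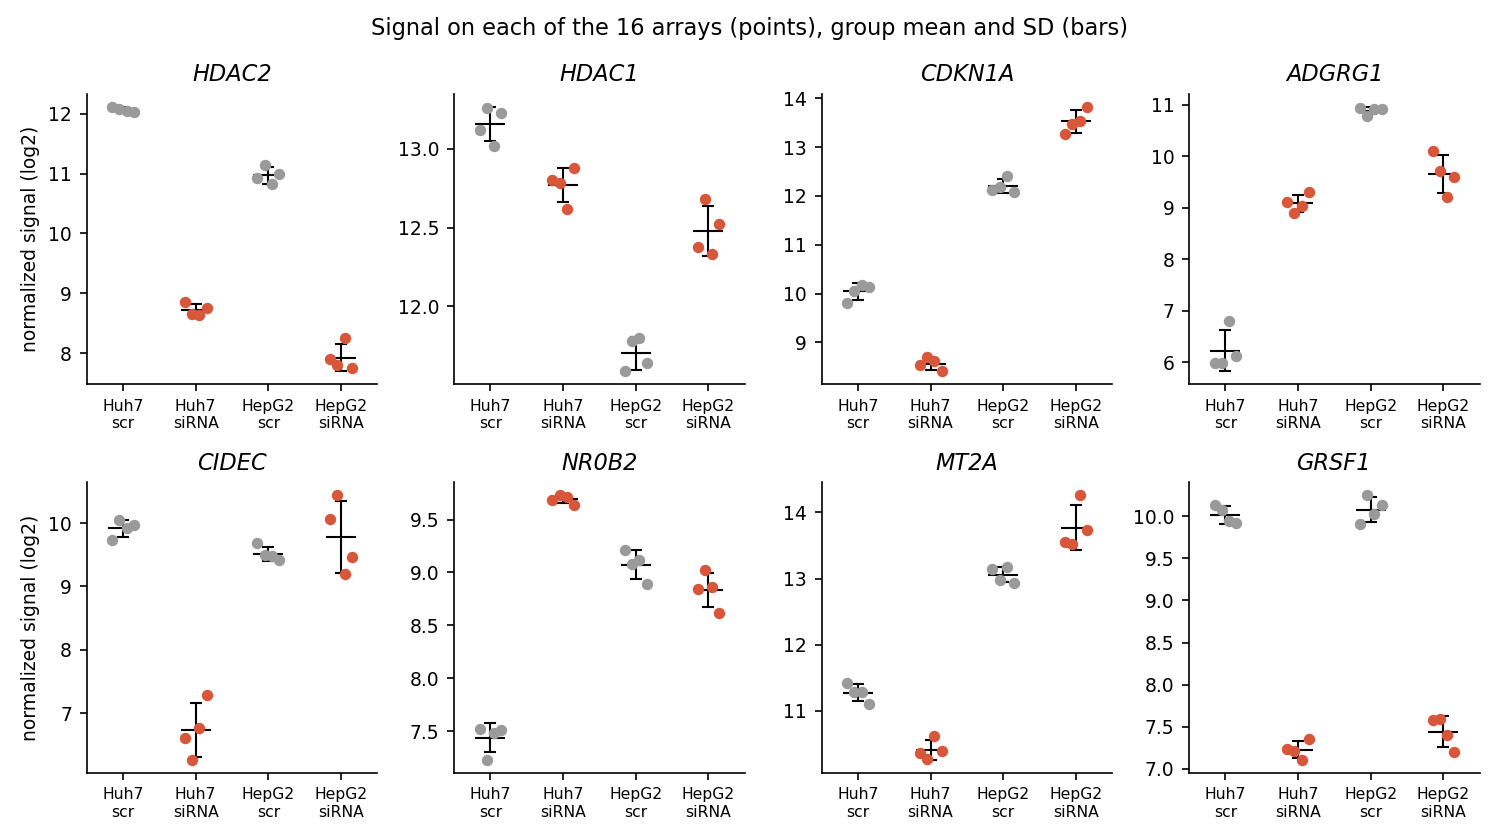
Normalized log2 signal of 8 genes on each of the 16 arrays (points), with the mean and SD of each group of 4 (bars). Grey points are scrambled and red points HDAC2 siRNA arrays. HDAC2 and GRSF1 fell in both lines, CDKN1A, HDAC1 and MT2A fell in Huh7 and rose in HepG2, ADGRG1 did the reverse, CIDEC fell in Huh7 with overlapping groups in HepG2, and NR0B2 rose in Huh7.

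Among genes that changed in the same direction by unequal amounts, most of those ranked first changed more in Huh7. After HPN came MARVELD3, a tight junction protein, with effects of 2.93 in Huh7 and 0.71 in HepG2 (difference -2.22, or -1.41 without background correction, with -1.02 and -1.46 for its other probes). KDM5B encodes a demethylase of histone H3 lysine 4. KDM5B read 8.33, 8.47, 8.47 and 8.64 on the scrambled Huh7 arrays and 10.87, 10.76, 10.80 and 10.78 on the siRNA arrays. On HepG2 arrays KDM5B read 9.07, 9.25, 9.16 and 9.27 with scrambled and 9.72, 9.53, 9.77 and 10.16 with HDAC2 siRNA. For KDM5B all 4 siRNA arrays lay above all 4 scrambled arrays in each line. KDM5B changed by 2.32 (SE 0.10, limma adjusted p = 1.02e-17) in Huh7 and by 0.61 (SE 0.10, limma adjusted p = 1.59e-05) in HepG2, a difference of -1.72 (SE 0.14, 95% interval -2.01 to -1.43, limma adjusted p = 9.82e-11). SPOCK2, a proteoglycan, rose by 2.88 in Huh7 and by 1.24 in HepG2, and KIF13B, a kinesin, by 1.95 and 0.32. FGA, the fibrinogen alpha chain, was the exception of these 6, with 0.24 in Huh7 and 1.84 in HepG2. MTHFD2 encodes a mitochondrial enzyme of the folate cycle and fell in both lines. MTHFD2 read 10.09, 9.72, 9.63 and 9.86 on the scrambled Huh7 arrays and 6.19, 6.19, 6.44 and 6.21 on the siRNA arrays. On HepG2 arrays MTHFD2 read 10.88, 11.05, 10.88 and 10.69 with scrambled and 9.07, 8.93, 9.11 and 9.18 with HDAC2 siRNA. For MTHFD2 all 4 siRNA arrays lay below all 4 scrambled arrays in each line. MTHFD2 changed by -3.57 (SE 0.14, limma adjusted p = 1.22e-18) in Huh7 and by -1.80 (SE 0.14, limma adjusted p = 2.37e-11) in HepG2, a difference of 1.77 (SE 0.20, 95% interval 1.36 to 2.18, limma adjusted p = 3.32e-08). Its other probe gave a difference of 2.47, and without background correction the difference of MTHFD2 was 0.75. ECE2, an endothelin-converting enzyme, fell by 2.24 in Huh7 and 0.62 in HepG2, and DIAPH3, a formin that nucleates actin, by 2.11 and 0.49 (difference 1.62, or 0.67 without background correction).

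A set of genes responded closely alike, with a 95% interval of the difference inside a 1.5-fold difference either way. GRSF1, an RNA-binding protein of mitochondria, ranked first among those that fell. GRSF1 read 10.13, 10.07, 9.94 and 9.92 on the scrambled Huh7 arrays and 7.24, 7.21, 7.11 and 7.35 on the siRNA arrays. On HepG2 arrays GRSF1 read 9.91, 10.25, 10.03 and 10.13 with scrambled and 7.58, 7.59, 7.40 and 7.20 with HDAC2 siRNA. For GRSF1 all 4 siRNA arrays lay below all 4 scrambled arrays in each line. GRSF1 changed by -2.78 (SE 0.10, limma adjusted p = 5.61e-20) in Huh7 and by -2.64 (SE 0.10, limma adjusted p = 6.66e-19) in HepG2, a difference of 0.15 (SE 0.14, 95% interval -0.13 to 0.42, limma adjusted p = 0.429). ANXA2P1, an annexin A2 pseudogene whose probe can bind the parent transcript, had effects of -2.25 in Huh7 and -2.31 in HepG2, but its difference of -0.06 was 0.65 (limma adjusted p = 0.00012) without background correction. TTPAL, a gene of the tocopherol transfer protein family, had effects of -2.22 in Huh7 and -2.26 in HepG2, and TGFBI, an extracellular matrix protein induced by TGF-beta, of -2.32 in Huh7 and -2.14 in HepG2. Neither was called, at -0.04 and 0.18, but the difference of TTPAL was called without background correction (-0.45, limma adjusted p = 0.000902) and the difference of TGFBI with each array scaled to one median (0.48, limma adjusted p = 0.043). Upwards, KLF11, a zinc finger repressor, rose by 1.54 in Huh7 and 1.66 in HepG2, although its other probe gave a difference of -0.58 (limma adjusted p = 0.147). ATF3, a stress-induced transcription factor, rose by 1.29 and 1.31, with a difference of 0.02 (SE 0.24, 95% interval -0.47 to 0.52, limma adjusted p = 0.959). The difference of ATF3 was 0.40 without HepG2 siRNA arrays 1 and 2 and -0.36 without arrays 3 and 4.

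Gene lists chosen for liver, chromatin, cell cycle, stress and metabolism were examined next. They are described by counts and medians over the members detected in both lines. Over all 9209 genes 22.8% were higher and 20.6% lower, 43.4% in all, with a median difference of 0.03. Within Huh7 27.2% of these genes rose and 28% fell, and within HepG2 23.2% rose and 21.5% fell. The metallothioneins, small metal-binding proteins, had 6 higher and 0 lower differences among 7 members, and the median difference was 1.22, from medians of -0.64 in Huh7 and 0.71 in HepG2. MT2A read 11.42, 11.28, 11.29 and 11.11 on the scrambled Huh7 arrays and 10.36, 10.27, 10.62 and 10.40 on the siRNA arrays. On HepG2 arrays MT2A read 13.14, 12.98, 13.17 and 12.94 with scrambled and 13.56, 13.52, 14.26 and 13.74 with HDAC2 siRNA. For MT2A all 4 siRNA arrays lay below the scrambled arrays in Huh7 and above them in HepG2. MT2A changed by -0.86 (SE 0.13, limma adjusted p = 1.25e-06) in Huh7 and by 0.71 (SE 0.13, limma adjusted p = 4.74e-05) in HepG2, a difference of 1.57 (SE 0.18, 95% interval 1.21 to 1.94, limma adjusted p = 3.85e-08). MT1E, MT1A and MT1X had differences of 1.51, 1.22 and 1.32, and MT1X fell by 1.07 in Huh7 with 0.25 in HepG2. Probes of this family can bind transcripts of its other members, so these values are not independent.

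As 6 of 7 metallothioneins had a higher difference, the promoters of MT2A (chr16:56608334-56608633 on the plus strand) and MT1X (chr16:56682220-56682519 on the plus strand) are printed from RefSeq (GRCh38.p14), 300 bases around the gene start. Capitals mark matches to TGCNCNC, the core of the metal response element bound by MTF1, on either strand, 8 in MT2A and 4 in MT1X. Such a short motif is common: it was found in 3 of 3 family members with a promoter entry and in 55.9% of all 35116 promoters.
MT2A: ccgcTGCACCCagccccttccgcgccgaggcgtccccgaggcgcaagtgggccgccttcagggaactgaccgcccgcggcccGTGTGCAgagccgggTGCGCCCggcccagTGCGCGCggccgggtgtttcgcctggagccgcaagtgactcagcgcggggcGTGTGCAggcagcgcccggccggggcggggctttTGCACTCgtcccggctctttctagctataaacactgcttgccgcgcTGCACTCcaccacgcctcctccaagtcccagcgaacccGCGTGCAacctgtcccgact
MT1X: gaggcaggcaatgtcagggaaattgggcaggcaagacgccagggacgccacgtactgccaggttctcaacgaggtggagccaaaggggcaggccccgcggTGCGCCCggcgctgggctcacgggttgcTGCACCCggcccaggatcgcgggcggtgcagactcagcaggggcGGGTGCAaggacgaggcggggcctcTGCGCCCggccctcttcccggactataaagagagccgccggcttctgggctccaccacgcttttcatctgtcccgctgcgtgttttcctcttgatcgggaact

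MYC and ribosome biogenesis genes fell mainly in Huh7. Of 18 members, 13 had a higher and 0 a lower difference, 15 fell and 0 rose in Huh7, and 4 fell and 1 rose in HepG2. In that list the median difference was 0.69, from medians of -0.82 in Huh7 and -0.12 in HepG2. NOP56, a core protein of box C/D small nucleolar particles, led the list. NOP56 read 13.42, 13.55, 13.44 and 13.47 on the scrambled Huh7 arrays and 12.38, 12.70, 12.48 and 12.54 on the siRNA arrays. On HepG2 arrays NOP56 read 12.42, 12.34, 12.52 and 12.30 with scrambled and 12.56, 12.55, 12.52 and 12.54 with HDAC2 siRNA. For NOP56 the siRNA arrays of Huh7 lay below all its scrambled arrays, while the HepG2 groups overlapped. NOP56 changed by -0.95 (SE 0.08, limma adjusted p = 5.87e-11) in Huh7 and by 0.14 (SE 0.08, limma adjusted p = 0.181) in HepG2, a difference of 1.09 (SE 0.12, 95% interval 0.85 to 1.33, limma adjusted p = 1.2e-08). BOP1 and RRP12, both needed to mature ribosomal RNA, had differences of 1.24 and 1.21. MYC encodes a transcription factor known to drive such genes. MYC read 10.73, 10.18, 10.07 and 10.22 on the scrambled Huh7 arrays and 8.93, 8.87, 8.81 and 9.04 on the siRNA arrays. On HepG2 arrays MYC read 10.80, 10.70, 10.25 and 10.60 with scrambled and 10.81, 10.40, 10.25 and 10.44 with HDAC2 siRNA. For MYC the siRNA arrays of Huh7 lay below all its scrambled arrays, while the HepG2 groups overlapped. MYC changed by -1.39 (SE 0.14, limma adjusted p = 1.36e-09) in Huh7 and by -0.11 (SE 0.14, limma adjusted p = 0.574) in HepG2, a difference of 1.27 (SE 0.20, 95% interval 0.87 to 1.68, limma adjusted p = 6.64e-06).

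The integrated stress response and unfolded protein response list had 17 higher and 3 lower differences among 29 members, and the median difference was 0.49, from medians of -0.87 in Huh7 and -0.24 in HepG2. In its PERK and ATF4 arm, 8 of 14 members were higher and 1 lower, and among chaperones and degradation factors of the endoplasmic reticulum 9 of 15 were higher and 2 lower. SLC7A5 encodes the light chain of a transporter for large neutral amino acids. SLC7A5 read 12.46, 12.98, 12.89 and 12.94 on the scrambled Huh7 arrays and 10.82, 10.80, 10.76 and 11.00 on the siRNA arrays. On HepG2 arrays SLC7A5 read 11.88, 11.83, 11.96 and 11.93 with scrambled and 11.77, 12.14, 11.84 and 11.47 with HDAC2 siRNA. For SLC7A5 the siRNA arrays of Huh7 lay below all its scrambled arrays, while the HepG2 groups overlapped. SLC7A5 changed by -1.97 (SE 0.11, limma adjusted p = 4.83e-15) in Huh7 and by -0.10 (SE 0.11, limma adjusted p = 0.552) in HepG2, a difference of 1.88 (SE 0.16, 95% interval 1.55 to 2.20, limma adjusted p = 1.52e-10). CEBPB, a basic leucine zipper factor, fell by 1.37 in Huh7 with an effect of 0.28 in HepG2, a difference of 1.64. ASNS, which makes asparagine, fell by 1.30 in Huh7 with an effect of -0.09 in HepG2, a difference of 1.21; its other probe gave 0.48 (limma adjusted p = 0.177). SDF2L1, a chaperone cofactor, fell in both lines, by 1.57 and 0.41. The serine and folate list, which shares ATF4 as a known regulator, had 6 higher and 1 lower of 12, with PSPH, the last enzyme of serine synthesis, with effects of -1.13 in Huh7 and 0.57 in HepG2.

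The promoters of RRP9 (chr3:51941855-51942154 on the minus strand), a ribosome biogenesis gene, and ASNS (chr7:97872359-97872658 on the minus strand) are shown as members that hold the motif known for their list, chosen after the match and the values were seen. Capitals mark CACGTG, the E-box bound by MYC, in RRP9, and TGATGNAAN, the C/EBP-ATF response element, in ASNS. The E-box was found in 3 of 12 list members with an entry and in 7.3% of all promoters, and the C/EBP-ATF element in 4 of 27 and in 3.6%. The difference of RRP9 was 1.17 (limma adjusted p = 0.000165).
RRP9: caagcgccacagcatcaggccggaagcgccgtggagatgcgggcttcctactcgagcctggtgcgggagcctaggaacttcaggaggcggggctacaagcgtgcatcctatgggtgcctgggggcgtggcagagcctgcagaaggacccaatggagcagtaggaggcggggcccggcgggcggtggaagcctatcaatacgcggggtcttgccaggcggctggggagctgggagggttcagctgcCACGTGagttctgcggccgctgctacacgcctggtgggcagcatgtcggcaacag
ASNS: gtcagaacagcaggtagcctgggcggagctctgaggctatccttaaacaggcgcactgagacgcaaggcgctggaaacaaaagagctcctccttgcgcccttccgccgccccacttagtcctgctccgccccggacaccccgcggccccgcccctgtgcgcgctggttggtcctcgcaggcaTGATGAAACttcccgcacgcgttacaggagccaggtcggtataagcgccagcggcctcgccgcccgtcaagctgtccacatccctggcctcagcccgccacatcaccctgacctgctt

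The other stress lists also held more higher than lower differences. Of 14 heat shock genes 6 were higher and 0 lower (median 0.28, from 0.23 to 0.64 over the alternatives). Their share called was 42.86%, close to the 43.4% of all 9209 genes. BAG3, a cochaperone of HSP70, had effects of -1.31 in Huh7 and -0.13 in HepG2. Of 18 NRF2 targets 10 were higher and 2 lower (median 0.54). GPX2, a glutathione peroxidase, went against the list, rising by 1.27 in Huh7 and falling by 0.33 in HepG2, while the bile salt and conjugate exporter ABCC2 had effects of -0.63 in Huh7 and 0.83 in HepG2. Among 10 chemokine and NF-kB genes 5 were higher and 0 lower (median 0.40). CXCL16, a membrane-bound chemokine, fell by 0.98 in Huh7 but rose in HepG2 by 0.75. CXCL8 encodes interleukin-8, which attracts neutrophils. CXCL8 read 12.68, 12.42, 12.42 and 12.42 on the scrambled Huh7 arrays and 12.03, 11.84, 11.84 and 11.86 on the siRNA arrays. On HepG2 arrays CXCL8 read 8.08, 8.17, 7.96 and 7.88 with scrambled and 10.11, 9.71, 9.07 and 9.76 with HDAC2 siRNA. For CXCL8 all 4 siRNA arrays lay below the scrambled arrays in Huh7 and above them in HepG2. CXCL8 changed by -0.59 (SE 0.14, limma adjusted p = 0.000555) in Huh7 and by 1.64 (SE 0.14, limma adjusted p = 6.2e-11) in HepG2, a difference of 2.23 (SE 0.19, 95% interval 1.84 to 2.63, limma adjusted p = 2.08e-10). The 17 interferon response genes divided into 3 higher and 4 lower (median 0.04), with ISG20 at a difference of 1.27.

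The called differences of the replication list were mainly higher, and those of the mitosis list were of both kinds. No difference was called for 18 of the 35 replication genes, and the share called was 48.57%, against 43.4% of all 9209 genes. Of 35 DNA replication genes 14 were higher and 3 lower. Their median difference was 0.35, from medians of -0.56 in Huh7 and -0.09 in HepG2. In Huh7 23 fell and in HepG2 9 fell, against 28% and 21.5% of all 9209 genes. CDT1, which licenses replication origins, fell by 0.80 in Huh7 but rose in HepG2 by 0.50. RPA2, a subunit of the single-strand binding complex, fell by 0.25 and rose by 0.64. POLA2, a subunit of DNA polymerase alpha, and PRIM1, the primase subunit it works with, had differences of 1.08 and -0.87, in opposite directions. Of 32 mitosis genes 9 were higher and 6 lower, and the median difference was -0.05, from medians of -0.29 in Huh7 and -0.28 in HepG2. The median difference of mitosis genes was 0.09 with each array scaled to one median and 0.16 without HepG2 siRNA arrays 1 and 2, so it had no settled sign. PRC1, a bundler of spindle microtubules, rose by 1.16 in Huh7 and fell by 0.25 in HepG2. CDC20, an activator of the anaphase-promoting complex, fell by 1.72 in Huh7 with an effect of -0.13 in HepG2. Of 16 cell cycle inhibitors 6 were higher and 3 lower (median 0.12). After CDKN1A came CCNG2, an atypical cyclin that restrains proliferation, with effects of 2.23 in Huh7 and 0.28 in HepG2 (difference -1.95, or -1.10 without background correction). GADD45A, a growth arrest gene, fell by 0.44 in Huh7 but rose in HepG2 by 0.42. Of 18 p53 targets 6 were higher and 4 lower (median 0.39). AEN, a nuclease of apoptosis, fell by 1.46 in Huh7 but rose in HepG2 by 0.37, while TP53INP1, a stress protein, rose by 2.22 in Huh7 with an effect of 0.06 in HepG2. Among 13 BCL2 family genes 2 were higher and 2 lower (median 0.22), led by the BH3-only gene BMF with effects of 2.97 in Huh7 and 0.27 in HepG2.

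The hepatocyte transcription factors had the lowest median among whole lists with 5 or more members. Of 14 members 2 were higher and 10 lower, and the median difference was -0.98, from medians of 0.27 in Huh7 and -0.28 in HepG2; 6 rose and 2 fell in Huh7, and 0 rose and 6 fell in HepG2. NR0B2 encodes SHP, a nuclear receptor that represses bile acid synthesis. NR0B2 read 7.52, 7.23, 7.48 and 7.51 on the scrambled Huh7 arrays and 9.69, 9.73, 9.71 and 9.64 on the siRNA arrays. On HepG2 arrays NR0B2 read 9.21, 9.08, 9.12 and 8.89 with scrambled and 8.84, 9.02, 8.86 and 8.62 with HDAC2 siRNA. For NR0B2 the siRNA arrays of Huh7 lay above all its scrambled arrays, while the HepG2 groups overlapped. NR0B2 changed by 2.26 (SE 0.10, limma adjusted p = 3.66e-17) in Huh7 and by -0.24 (SE 0.10, limma adjusted p = 0.0701) in HepG2, a difference of -2.50 (SE 0.15, 95% interval -2.80 to -2.20, limma adjusted p = 8.29e-14). RXRA, the dimer partner of many nuclear receptors, rose by 1.36 in Huh7 and fell by 0.49 in HepG2. CEBPB went the other way, as above, and FOXA1, a pioneer factor, rose by 1.07 in Huh7 with an effect of -0.05 in HepG2. The hepatocyte genes that such factors act on were mixed, with 9 higher and 13 lower of 31, and the median difference was -0.26, from medians of 0.37 in Huh7 and 0.06 in HepG2. The median was 0.23 with each array scaled to one median and 0.01 without HepG2 siRNA arrays 3 and 4, so the list as a whole had no settled direction. Among its receptors and enzymes 5 of 7 were lower and 1 higher. F10, coagulation factor X, rose by 1.64 in Huh7 with an effect of 0.15 in HepG2. Of 13 oncofetal liver genes 3 were higher and 5 lower (median -0.28). SOX9, a factor of liver progenitors, rose by 1.39 in Huh7 and fell by 0.32 in HepG2. IGF2 encodes a fetal growth factor. IGF2 read 7.07, 7.59, 7.26 and 7.33 on the scrambled Huh7 arrays and 9.11, 9.05, 9.07 and 9.16 on the siRNA arrays. On HepG2 arrays IGF2 read 8.18, 8.31, 8.60 and 8.29 with scrambled and 7.20, 7.48, 7.77 and 7.92 with HDAC2 siRNA. For IGF2 all 4 siRNA arrays lay above the scrambled arrays in Huh7 and below them in HepG2. IGF2 changed by 1.78 (SE 0.18, limma adjusted p = 1.02e-09) in Huh7 and by -0.75 (SE 0.18, limma adjusted p = 0.00116) in HepG2, a difference of -2.54 (SE 0.25, 95% interval -3.05 to -2.02, limma adjusted p = 3.16e-09).

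Apart from the insulin and FOXO genes, the metabolic lists that follow gave counts in both directions. Of 12 insulin and FOXO genes 0 were higher and 6 lower, and the median difference was -0.68, from medians of 0.39 in Huh7 and -0.05 in HepG2. FOXO3 rose more in Huh7, by 1.93 against 0.74. IGFBP1, an insulin-repressed binding protein of insulin-like growth factors, followed. IGFBP1 read 5.79, 5.92, 5.84 and 5.72 on the scrambled Huh7 arrays and 5.86, 5.84, 5.52 and 5.34 on the siRNA arrays. On HepG2 arrays IGFBP1 read 12.06, 12.26, 12.19 and 12.11 with scrambled and 10.57, 10.54, 10.14 and 9.89 with HDAC2 siRNA. For IGFBP1 the Huh7 groups overlapped, while the siRNA arrays of HepG2 lay below all its scrambled arrays. IGFBP1 changed by -0.18 (SE 0.17, limma adjusted p = 0.427) in Huh7 and by -1.87 (SE 0.17, limma adjusted p = 4.89e-10) in HepG2, a difference of -1.69 (SE 0.24, 95% interval -2.18 to -1.19, limma adjusted p = 1.82e-06). The Huh7 values of IGFBP1 lay close to the lowest detected signals of those arrays (5.26 to 5.43). A fall in Huh7 thus had little room to show, which limits what the difference of IGFBP1 can tell. Of 11 fatty acid synthesis genes 2 were higher and 5 lower (median -0.40), with the desaturase FADS1 with effects of 1.56 in Huh7 and -0.13 in HepG2 and the regulator SREBF1 with effects of 1.04 in Huh7 and -0.09 in HepG2. The 17 PPAR and fatty acid oxidation genes had 7 higher and 5 lower (median 0.17, or -0.13 with all probes taken singly). EHHADH, a peroxisomal enzyme, had an effect of 0.13 in Huh7 and fell by 1.13 in HepG2 (difference -1.26, or -0.79 without background correction). CPT1A, the entry step of mitochondrial oxidation, rose by 0.66 in Huh7 and fell by 0.51 in HepG2, with -0.66 as the difference by the mean of its probes. Of 20 cholesterol synthesis genes 3 were higher and 4 lower (median 0.05). Of 20 glycolysis genes 5 were higher and 4 lower (median -0.11, or 0.17 with median scaling), and the glucose transporters SLC2A1 and SLC2A3 had differences of 1.59 and 1.24.

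The histone genes, whose transcripts rose mainly in Huh7, had 1 higher and 10 lower differences among 18. Their median difference was -0.69, from medians of 0.67 in Huh7 and -0.14 in HepG2. In Huh7 12 rose and 1 fell, against 27.2% and 28% of all 9209 genes. In HepG2 4 rose and 6 fell, against 23.2% and 21.5%. Histone probes can bind transcripts of close relatives. H2BC21 rose by 2.24 in Huh7, where 3 of 4 scrambled arrays detected it, with an effect of -0.38 in HepG2 (difference -2.63, or -1.14 without background correction). In the remaining lists the counts were 1 higher and 3 lower of 9 WNT targets (median -0.02, from -0.27 to 0.22 over the alternatives), 3 and 3 of 8 epithelial genes (0.19), 1 and 2 of 10 mesenchymal genes (0.06), and 0 and 1 of 3 neuronal genes (-0.50). KRT8, a keratin of simple epithelia, fell by 0.37 in Huh7 but rose in HepG2 by 0.66, and the claudin CLDN1 had an effect of 0.07 in Huh7 but rose in HepG2 by 1.21. Reference genes were called for a difference about as often as all genes, 50% of them against 43.4% of the 9209. Of 16 reference genes 6 had a higher and 2 a lower difference (median 0.20), with B2M at 0.81, HPRT1 at 0.82 and RPL13A at 1.00. Of 4 leukocyte markers detected in both lines, CD14 and LYZ were higher, at 0.97 and 1.12; the call was lost for CD14 with the mean of its probes (0.33) and for LYZ without HepG2 siRNA arrays 1 and 2 (0.57). Of the fibroblast and endothelial markers, PDGFRA was lower at -1.63 and PECAM1 higher at 1.06 (0.36 without background correction). The part of such cells in the results was not tested.

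**Figure D4:**
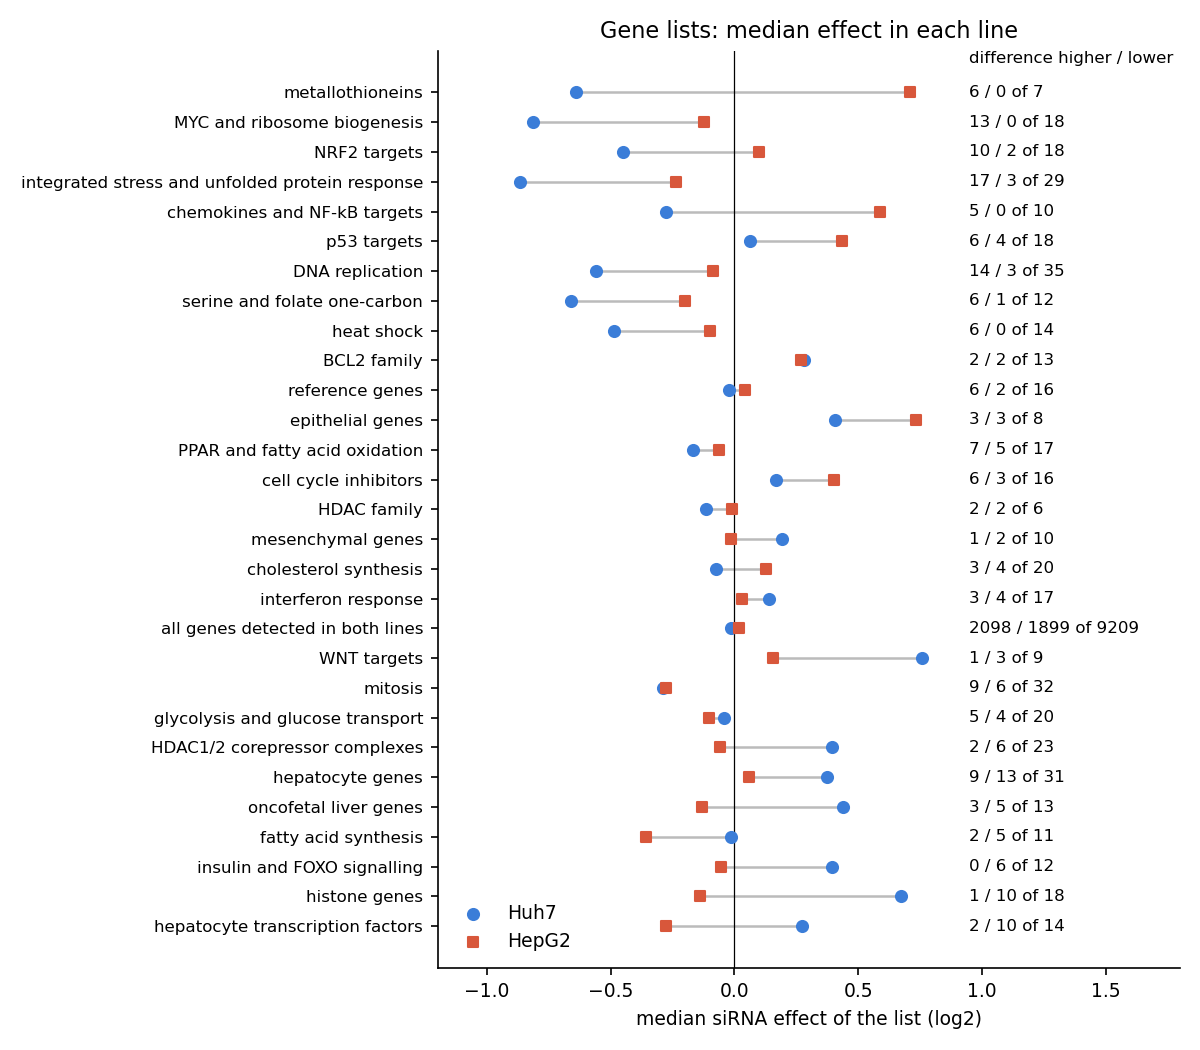
Median siRNA effect (log2) over the members of each list detected in both lines, in Huh7 (circles) and HepG2 (squares), for lists of 5 or more such members, ordered by the median difference. The numbers at the right give members with a higher and a lower called difference. Metallothioneins stand at the top with 6 and 0 of 7, and hepatocyte transcription factors at the bottom with 2 and 10 of 14.

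The line difference of the siRNA effect was then set beside that of SAHA, which blocks several histone deacetylases at once and was measured on separate arrays with separate controls. No source used here gives the doses and times, so the values stand side by side. Of the 9209 genes, 5152 (55.9%) had a called line difference with SAHA and 2430 with both treatments, which is 60.8% of the siRNA calls and 47.17% of the SAHA calls. Of these, 1299 (53.46%) had the same sign. Across genes, which are not independent, the differences correlated at a Pearson r of 0.039 and a Spearman rho of 0.045. The contrast between the treatments was called for 4637 genes (50.4%), for 4765 without HepG2 siRNA arrays 1 and 2 and for 4517 without arrays 3 and 4. CIDEC had a line difference of 3.45 with the siRNA and 3.66 with SAHA (limma adjusted p of the contrast between them = 0.696). TJP3 gave -3.45 with the siRNA and -4.14 with SAHA (limma adjusted p of the contrast between them = 0.134). For PPARGC1A the values were -3.58 with the siRNA and -1.50 with SAHA (limma adjusted p of the contrast between them = 1.32e-06). These genes had the same sign with both treatments, and the contrast between the treatments was not called for CIDEC and TJP3. Several others turned over. For CDKN1A the line difference was 2.82 with the siRNA and -1.54 with SAHA (limma adjusted p of the contrast between them = 1.07e-16). ADGRG1 gave -4.09 with the siRNA and 2.98 with SAHA (limma adjusted p of the contrast between them = 1.1e-17). HPN read -3.24 with the siRNA and 3.27 with SAHA (limma adjusted p of the contrast between them = 4.93e-16). FST, CCN1 and MT2A also had opposite signs, at -3.02 and 1.36, 2.33 and -1.52, and 1.57 and -1.84 for siRNA and SAHA. INHBB and CXCL8 differed more with SAHA, at 4.50 against 2.35 and 4.41 against 2.23. Among lists, the metallothioneins had a median line difference of 1.22 with the siRNA and -1.38 with SAHA, the hepatocyte transcription factors -0.98 and 0.70, mitosis genes -0.05 and -1.84, and histone genes -0.69 and -0.96, against 0.03 and -0.09 over all genes.

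**Figure D5:**
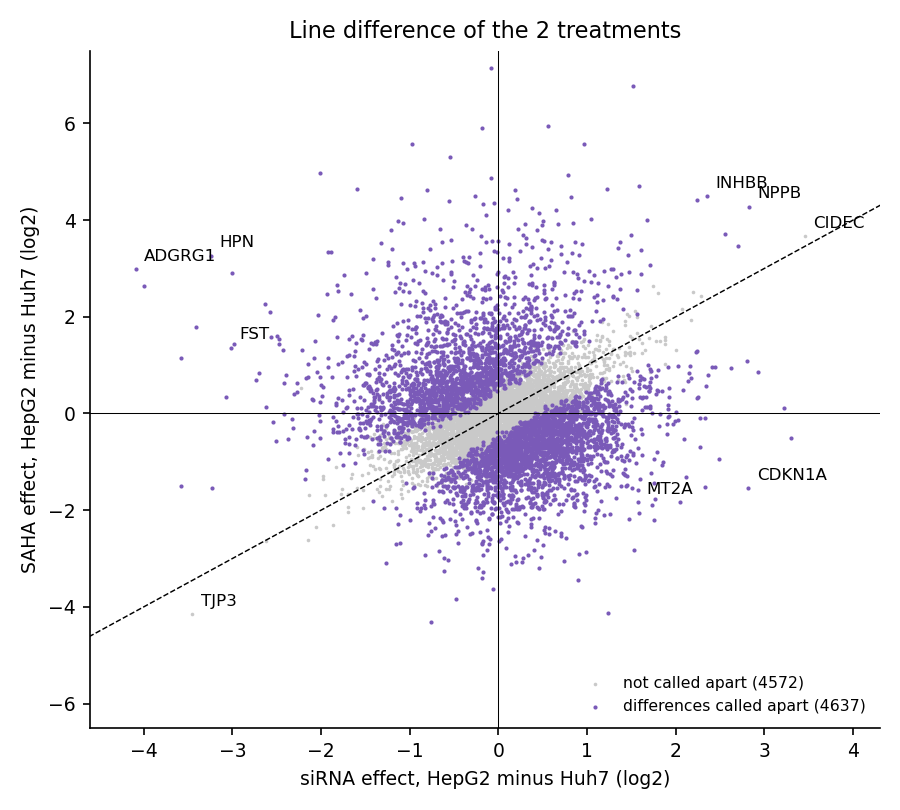
Line difference (HepG2 effect minus Huh7 effect, log2) of the siRNA on the horizontal and of SAHA on the vertical axis for the 9209 genes. Purple points are the 4637 genes whose 2 line differences were called apart, and the dashed line marks equal values. CIDEC and TJP3 lie near it, while CDKN1A and MT2A lie below the horizontal axis and ADGRG1, HPN and FST above it on the opposite side.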

How the data were processed

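The authors deposited probe intensities of one-colour Illumina bead arrays on a linear scale without normalization, and per the file headers a detection p-value stands beside each intensity, which sets the probe against negative control beads. A second deposited table holds normalized intensities and served as an alternative. Per the submitters' processing notes, GenomeStudio 2011.1 was used. With limma 3.58.1 in R 4.3.3, background was removed by normexp, array by array, with parameters inferred from detection p-values and an offset of 16, all 32 arrays were quantile-normalized together, and log2 was taken. A probe entered with a detection p under 0.05 on at least 4 of 32 arrays (16121 probes), and a gene was read by its brightest probe (12973 genes). Symbols were brought up to date through a RefSeq gene list: of 24526 probes 20406 were current, 3265 updated and 855 kept. The scripts were checked on simulated data.

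One model with 8 group means (24 residual degrees of freedom, 5.66 from the prior) gave two-sided moderated tests, with Benjamini-Hochberg adjustment over 12973 genes and calls under 0.05. Unless said otherwise, every adjusted p is limma's from this fit. All 32 arrays share this estimate of the spread. Where no array of a group detected a probe, signals under the lowest detected one of an array were set to that level (5.26 to 5.55 on the log2 scale) and the fold is given as "at least".

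Genes were named by rank: the HDAC family, the 12 largest differences each way, the 8 first opposite responders each way, the 6 first close and unequal responders each way, and up to 4 members of each of 31 lists by adjusted p, printed in part. Clone and locus identifiers were not named. A few genes that the rule picks are not reported here; they stayed in the fit and in the counts of the lists. The contrast, its members, the lists and the rule were chosen with earlier results of these data known. Alternatives changed background, scaling, filter, probe choice, arrays or replicate block. Same-numbered arrays of 1 line had deviations correlated at -0.14 to 0.138. Arrays of unlike number were not compared in this way, so these values cannot decide whether the numbers pair the arrays. The main fit did not pair them. Promoters come from RefSeq (GRCh38.p14).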

Additional observations from a re-analysis of the deposited data

Results flagged for a closer look

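The siRNA effect differed between the lines for 3997 of 9209 genes by the limma test of the difference itself, and 691 of these changed in opposite directions. The line difference itself differed between siRNA and SAHA for 4637 genes.

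Among the genes named in the report, 17 of 432 groups of 4 arrays (3.94%) held 1 array far from the other 3 by Dixon's criterion, where chance gives about 1 in 20. In Huh7 with scrambled siRNA, replicate 1 read 12.68 for CXCL8 (others 12.42) and 10.29 for NABP1 (10.15 to 10.17). Replicate 2 of that group read 9.51 for ACOX2 (9.20 to 9.22), 13.53 for CLDN1 (13.36 to 13.39) and 7.23 for NR0B2 (7.48 to 7.52). Its replicate 3 read 5.94 for LYZ (6.16 to 6.18). In Huh7 with HDAC2 siRNA, CXCL8 was 12.03 on replicate 1 (11.84 to 11.86), MTHFD2 was 6.44 on replicate 3 (6.19 to 6.21), and on replicate 4 CDC20 was 12.29 (11.87 to 11.92) and POLA2 8.51 (8.26 to 8.28). In HepG2 with scrambled siRNA, replicate 1 read 9.30 for NFIX (9.61 to 9.67) and 5.86 for PECAM1 (5.25 to 5.26), replicate 2 read 10.77 for ADGRG1 (10.91 to 10.93), and replicate 4 read 7.18 for LYZ (7.69 to 7.73). In HepG2 with HDAC2 siRNA, HSPB8 was 6.33 on replicate 1 (7.19 to 7.24), LRCH4 was 7.28 on replicate 2 (5.99 to 6.10), and AEN was 11.47 on replicate 3 (11.69 to 11.72).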

How the results depend on the processing

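The count of differences of at least 2-fold fell from 1182 to 486 without background correction. The count of called differences ran from 3635 with the 16 siRNA arrays fitted alone to 4296 with no background correction, over settings that count genes, and was 4513 of 11040 with all probes taken singly. With each array scaled to one median it was 3657, of which 3240 were also called with quantile normalization, and the genes changed in the same direction by unequal amounts fell from 555 to 335; the cause was not tested. Without background correction 29 of the 107 named differences with alternatives were smaller by over 1.5 times. Among differences called in either fit, signs turned for ANXA2P1 (0.65) with no background correction and for BCL2L1 (0.10) with median scaling. Uncalled differences near 0 also turned: ATF3, ANXA2P1, KLF11, TTPAL and HDAC11 did so in 3 to 9 settings, among them ATF3 (-0.13) without background correction, KLF11 (-0.23) with the mean of its probes and HDAC11 (0.23) without HepG2 siRNA arrays 3 and 4. List medians of over 0.1 in size turned for cell cycle inhibitors (-0.0178, no background correction), hepatocyte genes (0.23) and glycolysis (0.17) with median scaling, PPAR and fatty acid oxidation (-0.13, all probes singly), the HDAC family (-0.0126) without HepG2 HDAC2 siRNA arrays 1 and 2, and hepatocyte genes (0.013) and glycolysis (0.0347) without arrays 3 and 4. Medians nearer 0 turned in 11 of 32 settings for WNT targets, 5 for mitosis, 4 for interferon response and 3 each for cholesterol synthesis and mesenchymal genes. Apart from the turns of medians over 0.1 in size, 106 of 991 list medians moved by 0.1 or more. With each array scaled to one median, NRF2 targets went from 0.54 to 0.93, reference genes from 0.20 to 0.58 and histone genes from -0.69 to -0.46. Leukocyte markers went from 0.68 to 0.26 without background correction. The settings that leave out array pairs were added after seeing the data. With the replicate number as a block within line and subset 3834 differences were called, and with a block shared by all groups 3990; the numbers share no stated source. Over 165 genes picked by the rule and all settings, 5096 of 5246 values kept sign and side of the threshold, 62 turned sign with no call in either fit, 58 lost the call, 28 gained it and 2 turned sign with a call in one fit. Signals near background limit the size of the differences of dim genes.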
